A study of Mus musculus with 2 samples.

Results

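Mature Cxcr2 neutrophils were followed here in immune cells sorted from the thalamus of mice with a cortical brain injury. Single-cell RNA-seq with a droplet 3′ kit was run on live CD45+ thalamus cells of C57B6/J mice at day 21 after cortical ablation injury, in 1 library for each antibody. One group received an anti-CD9 antibody (clone KMC8) and the other a normal rat IgG as the control antibody, each at 1.0 µg/µl through a cannula into the thalamus from day 7 to day 19, so that both groups carried the injury and the cannula. The study describes thalamus samples as cells of 4 mice pooled and female mice as those of most of its experiments, and it gives an age of 12 weeks for its mice.

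The deposited tables held 12245 barcodes with 38042608 unique molecular identifiers (UMIs, counts of distinct captured RNA molecules) for the control antibody and 15173 barcodes with 40825201 UMIs for the anti-CD9 antibody. The median barcode had 1816 UMIs and 1134 genes in the control library and 1667 UMIs and 940 genes in the anti-CD9 library. Cells were kept if they had 200 to 7500 genes and at most 5% mitochondrial UMIs, which left 11690 control and 14455 anti-CD9 cells. The neutrophils were then selected on their own UMI counts: at least 10 UMIs of S100a8 and S100a9 together, at least 2 of Cxcr2, Retnlg, Mmp9, Mmp8 and Lrg1 together, at most 2 of the interferon genes Rsad2, Ifit1, Ifit3 and Slfn4, at most 2 of the stress genes Gdf15 and Hilpda, and at most 1 of the complement genes C1qa, C1qb and C1qc. This gate held 549 of 26145 kept cells, 12 from the control library and 537 from the anti-CD9 library. Because the genes of the gate chose the cells, their values are given as a description only. With 1 library for each antibody no test between antibodies was possible, and differences between the antibodies, the pools of mice and the libraries cannot be told apart. Intervals are 95% intervals (exact Clopper-Pearson for shares, exact Poisson for CPM, a normal approximation from the counts for log2 ratios) and cover counting error only.

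Neutrophils are short-lived granulocytes made in the bone marrow under the cytokine G-CSF. Their granule proteins are made in an order as they mature: azurophil granule enzymes such as myeloperoxidase in early progenitors, then the specific granule proteins cathelicidin (Camp), neutrophilic granule protein (Ngp) and lactoferrin (Ltf), then the gelatinase Mmp9. CXCR2 is the receptor for the ELR chemokines that draw mature neutrophils out of the marrow and into inflamed tissue, whereas CXCR4 holds them in the marrow and is regained with age. Few neutrophils are found in the parenchyma of the healthy brain, and they enter it after injury.

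S100a8 and S100a9, which encode the subunits of the calcium-binding protein calprotectin, set the outer bound of the gate. In the 537 anti-CD9 cells the median cell held 17 UMIs of S100a8 and 29 of S100a9. Cxcr2 was found in 373 of these cells (69.5%, interval 65.4 to 73.3%), Lrg1, a secreted leucine-rich glycoprotein, in 327 (60.9%) and Retnlg, a resistin-like protein of neutrophils, in 280 (52.1%). Mmp9 was found in 259 cells (48.2%) and Mmp8, the neutrophil collagenase, in 146 (27.2%). Most cells were thus admitted on a few of the 5 marker genes: 81 cells held 1 of them, 201 held 2, 145 held 3, 83 held 4 and 27 held all 5. Of the interferon genes that capped the gate, Slfn4 still gave 238 UMIs in 196 cells, whereas Rsad2 gave 39, Ifit1 25 and Ifit3 14.

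The bounds of the gate cut through a continuous range of values. The 103 cells with just 2 marker UMIs had 6000 CPM of Il1b (UMIs of the gene per 1000000 UMIs of the summed cells) and 1346 of Csf3r, and the 135 cells with 1 marker UMI, just outside, had 5560 and 1281. The 200 cells with no marker UMI had 4200 CPM of Il1b and 859 of Csf3r. At the interferon bound, the 78 cells with 2 UMIs had 9226 CPM of Il1b and the 50 cells with 3 UMIs had 11148. At the calprotectin bound, 32 cells with 10 to 12 UMIs stood beside 37 cells with 7 to 9, with 4477 and 5628 CPM of Il1b. At these 3 bounds Il1b was present on both sides. Cd9 lay at 1773 CPM at 2 marker UMIs, 2177 CPM at 1 and 2796 CPM at 0, so that Csf3r was lower and Cd9 higher in cells with fewer marker UMIs.

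Genes that the gate did not use were then read against the name. Csf3r, the G-CSF receptor, was found in 419 of the 537 anti-CD9 cells (78.0%), at 1684 CPM (1590 to 1782) against 163 CPM in the kept cells of that library with under 10 calprotectin UMIs. Il1r2, the interleukin 1 decoy receptor, stood at 1741 against 48.9 CPM and Hdc, the histamine-forming enzyme, at 1577 against 42.2 CPM. All 14 tested genes of the neutrophil identity list were at least 2-fold higher in the gated cells, relative to the median gene, where 20.7% of 13587 genes were. The gate itself drew on this contrast. Against the calprotectin cells over the interferon bound, taken up below, 0 of 13 tested genes of this list were 2-fold higher and 2 were lower. Their median log2 ratio relative to the median gene was −0.37, and of all genes 3.34% were higher and 11.3% lower. Ptprc, which encodes the CD45 antigen of the sort, was found in 420 gated cells (78.2%) and in 9 of the 12 control cells. The azurophil granule genes Mpo, Elane, Ctsg and Prss57 had 0 UMIs among 712108 UMIs of the gated anti-CD9 cells, Prtn3 had 7 and Ms4a3 had 1. Of 8 cell cycle genes, 6 were at least 2-fold lower than in the other kept cells, where 14.5% of genes were, and together they gave 42 UMIs. Ly6g, the antigen of the common neutrophil antibody, gave only 43 UMIs in 29 cells (5.40%). Read over the anti-CD9 cells as a whole, these values go with the name in all but Ly6g. They do not show it cell by cell, since Cxcr2 itself was found in 373 of the 537. The control cells are taken up separately.

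Markers of other cell types were present in the gated anti-CD9 cells. T cell markers summed to 381 UMIs (535 CPM, beside 1369 CPM in the kept cells under the calprotectin minimum) in the 537 cells with Cd3g the most abundant. None of these 5 genes was 2-fold lower than in those cells relative to the median gene, where 14.5% of genes were. Of Cd3d, Cd3e and Cd3g together, 20 gated cells held 2 or more UMIs. Microglia markers summed to 306 CPM in the gated cells and 1502 CPM in the cells under the calprotectin minimum, with Sall1 at 0 in the gated cells. The macrophage and monocyte list summed to 1482 and 10674 CPM, and in the gated cells Apoe was 1042 CPM of it and Mrc1 was at 0. In all, 38 of 537 cells held 2 or more UMIs of T cell, B cell or microglia genes. Plasma cell markers summed to 1705 and 1957 CPM, and Jchain was 1386 CPM of the first. Those of the gated cells came from few cells: 1 cell gave 84.9% of the Jchain, 67.8% of the Igkc and 89.4% of the Igha UMIs, and 11 cells held 100 or more immunoglobulin UMIs. Whether such cells were doublets was not tested, since no doublet caller was run.

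Free RNA was gauged in cells that should lack neutrophil genes. T cells of the anti-CD9 library had 82.4 CPM of S100a9, B cells 55.0 and microglia 56.7, against 30570 CPM (30165 to 30979) in the gated cells. For every 100 S100a9 UMIs the T cells held 64.6 of S100a8 and 7.08 of Retnlg, and the gated cells 55.6 and 9.99. For Il1b the T cells held 187 and the gated cells 27.1, and for Lcn2 168 and 12.7, so these 2 genes did not keep the ratio that they had in the gated cells. In T cells of the control library S100a9 was at 5.53 CPM. The T cell, B cell and microglia classes were limited to under 10 calprotectin UMIs, so their S100a8 and S100a9 levels were bounded by the gate.

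The gated neutrophils were nearly confined to the anti-CD9 library in this pair of libraries, which held 97.8% of them (96.2 to 98.9%). They made up 0.103% of kept cells in the control library (12 of 11690, interval 0.0531 to 0.179%) and 3.71% in the anti-CD9 library (537 of 14455, interval 3.41 to 4.04%). The other cells with 10 calprotectin UMIs and few C1q UMIs were also far more frequent there. Cells over the interferon bound, called interferon-high here, numbered 5 (0.0428%) and 723 (5.0%). Cells over the stress bound, called stress-high, numbered 0 of 11690, which allows up to 0.0316%, and 101 (0.699%). The marker minimum was not asked of either class, and the median cell held 5 marker UMIs in the gated, 2 in the interferon-high and 0 in the stress-high cells of the anti-CD9 library. The rest, under the marker minimum, numbered 7 and 335 (2.32%). Within these calprotectin cells the gate held 12 of 24 control cells (interval 29.1 to 70.9%) and 31.7% of 1696 anti-CD9 cells (29.5 to 33.9%), and the intervals overlapped. Both libraries were sorted on CD45 and loaded from a pool, so fewer neutrophils and more of the other cells cannot be told apart in these shares. T cells numbered 6345 and 3213, microglia 2434 and 1358, and B cells 224 and 723, in the control and anti-CD9 libraries.

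**Figure D1:**
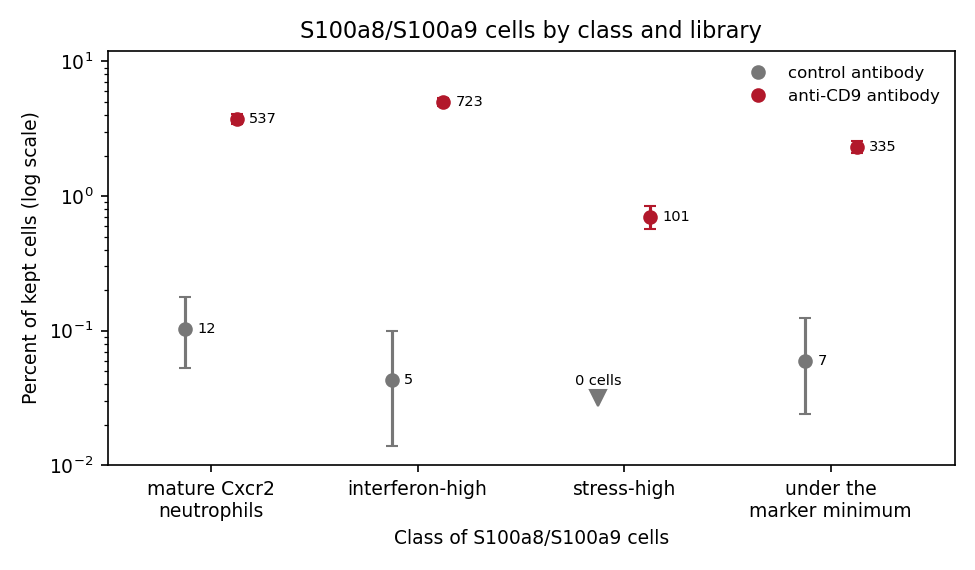
Share of kept cells (percent, log scale) in each class of S100a8/S100a9 cells, control antibody in grey and anti-CD9 antibody in red, with exact 95% intervals and the number of cells beside each point; the triangle marks the upper bound where no cell was found. The mature Cxcr2 neutrophils lay at 0.103% and 3.71%, and every class was higher in the anti-CD9 library.

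The gated cells held fewer UMIs than the median kept cell, which had 1712 in the anti-CD9 and 1848 in the control library. The anti-CD9 neutrophils had a median of 1097 UMIs (quartiles 890 and 1344, highest 14537) and 607 genes with 0.274% mitochondrial UMIs, and the control cells 1140 UMIs and 678 genes. Interferon-high cells had a median of 1320 UMIs and stress-high cells 1459. Among the 20 most abundant genes of the anti-CD9 neutrophils, mitochondrial and ribosomal genes left out, were Fth1, the ferritin heavy chain, at 29171 CPM, Srgn, the granule proteoglycan serglycin, at 9965, Il1b at 8291, Cxcl2 at 5180 and Cebpb, a granulocyte transcription factor, at 4092. These counts come from 3′ ends and are not divided by gene length.

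The 12 control neutrophils fell into unlike cells. Camp, Ngp and Ltf, proteins that neutrophil precursors load into specific granules, summed to 3 or more UMIs in 4 of the 12 (33.3%, interval 9.92 to 65.1%) but in 3 of the 537 anti-CD9 cells (0.559%, interval 0.115 to 1.62%). The 4 control cells held 5, 190, 219 and 73 UMIs of Camp and 6, 169, 188 and 63 of Ngp. They held 0 UMIs of Cxcr2 and 0 of Il1b, and 3, 4, 3 and 6 UMIs of Ly6g. The name of mature Cxcr2 cells therefore did not hold for these 4, which passed the gate on Retnlg, Mmp8, Mmp9 or Lrg1. Among the other 8 control cells Ly6g was at 0 in every one, Cxcr2 was found in 6, at 1, 3, 4, 2, 2 and 1 UMIs, and Il1b in 6, at 7, 4, 3, 1, 1 and 2 UMIs. The control cells with Il1b and those with Camp did not overlap. In the anti-CD9 library 1 cell carried 245 Camp and 142 Ngp UMIs, 96.1% and 92.2% of the UMIs of these genes in the gate. It too had no Cxcr2 and no Il1b UMI. The other anti-CD9 cells with 3 or more UMIs of these genes did hold Il1b. One had 10 Ngp and 30 Il1b UMIs and another 3 Camp and 5 Il1b UMIs, both without Cxcr2.

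**Figure D2:**
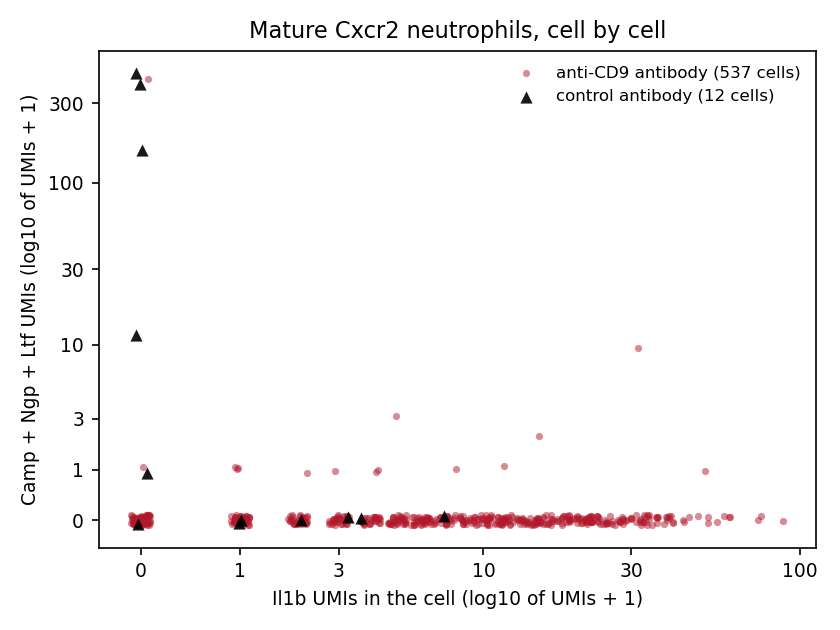
Each gated cell by its Il1b UMIs (horizontal, log10 of UMIs + 1) and its summed Camp, Ngp and Ltf UMIs (vertical, same scale; points are slightly jittered), control antibody as black triangles and anti-CD9 antibody as red points. The 4 control cells with 3 or more Camp, Ngp and Ltf UMIs lie at 0 Il1b UMIs, and 3 of the 537 anti-CD9 cells reached that level.

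Since Camp, Ngp and Ltf stood together in the same cells, the 250 bases before each gene start were read from the RefSeq promoters of GRCm38.p6, where all 3 genes lie on chromosome 9. The motif searched was the C/EBP consensus form TTNNGNAA on both strands (TTNCNNAA as read on the given strand), since C/EBPε is the factor known for specific granule genes, and matches are in capitals in the sequences of Camp (chr9:109849457-109849706, minus strand), Ngp (chr9:110419558-110419807, plus strand) and Ltf (chr9:111019042-111019291, plus strand):
Camp: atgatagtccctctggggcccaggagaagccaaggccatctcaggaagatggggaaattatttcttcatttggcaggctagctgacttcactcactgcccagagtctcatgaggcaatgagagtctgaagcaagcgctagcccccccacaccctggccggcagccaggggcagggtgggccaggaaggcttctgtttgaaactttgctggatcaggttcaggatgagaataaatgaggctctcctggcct
Ngp: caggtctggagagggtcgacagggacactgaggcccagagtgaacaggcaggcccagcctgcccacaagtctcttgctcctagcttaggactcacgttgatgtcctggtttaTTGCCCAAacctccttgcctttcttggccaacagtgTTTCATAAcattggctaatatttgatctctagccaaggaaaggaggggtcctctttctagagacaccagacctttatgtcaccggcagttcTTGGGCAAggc
Ltf: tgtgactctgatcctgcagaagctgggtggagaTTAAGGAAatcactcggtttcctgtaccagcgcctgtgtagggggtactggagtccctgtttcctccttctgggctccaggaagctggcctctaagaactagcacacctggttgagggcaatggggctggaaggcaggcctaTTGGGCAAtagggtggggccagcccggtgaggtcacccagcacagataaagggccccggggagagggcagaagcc
Ngp held 3 matches, starting at −138, −102 and −11 from the gene start, Ltf held 2, at −217 and −75, and Camp held 0. Of 32851 promoters of this length 36.8% held the motif, 10.9% at 2 or more places and 2.61% at 3 or more. Among the genes that set the calprotectin and marker bounds, S100a9 and Mmp8 held 2 matches, S100a8 and Retnlg 1 and Cxcr2 and Lrg1 0, and Mmp9 was not among the 9 of 10 genes matched. A match is a description of the letters and shows no binding.

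Gene levels in the gated cells of both libraries were set side by side. Camp was at 24294 CPM in the control cells and 358 in the anti-CD9 cells, and Ngp at 21301 and 216. Without the cells that held 100 or more UMIs of these genes or of immunoglobulin genes, Camp was at 408 CPM in the control cells (5 UMIs) and at 14.8 CPM in the anti-CD9 cells (10 UMIs). Il1b, the main interleukin 1 ligand of neutrophils, was at 898 CPM (18 UMIs, interval 532 to 1419) in the control cells and 8291 CPM (8081 to 8505) in the anti-CD9 cells, a log2 ratio of 3.21 (2.54 to 3.87). Without those cells the log2 ratio was 2.56 (1.89 to 3.23). Cxcl2, an ELR chemokine and ligand of CXCR2, gave 6 UMIs in the control cells and stood 4.11 higher on the log2 scale in the anti-CD9 cells (2.96 to 5.27), and 3.47 higher (2.31 to 4.62) without those cells. Fth1 was at 4091 CPM in the control and 29171 CPM in the anti-CD9 cells. Cd14, the lipopolysaccharide co-receptor, Ccl3, a CC chemokine, and Isg15, a ubiquitin-like interferon target, had 0 UMIs in the 12 control cells and were at least 13.4-fold, 6.73-fold and 3.21-fold higher in the anti-CD9 cells when set against a floor of 3 counts over the 12 cells. Without the cells of 100 or more UMIs of granule or immunoglobulin genes these bounds were 8.62-fold, 4.31-fold and 2.04-fold. Cd9 itself differed by less than its counting error, at 1097 CPM (22 UMIs) and 1413 CPM (log2 ratio 0.36, −0.25 to 0.97). Of its 22 control UMIs, 2, 6 and 3 came from the cells with 190, 219 and 73 Camp UMIs, and no ratio without these cells is given. Cxcr2, a gene of the marker minimum, was at 649 and 1055 CPM (0.70, −0.09 to 1.49). Without the cells of 100 or more UMIs of granule or immunoglobulin genes it was at 1062 and 1104 CPM (0.06, −0.73 to 0.85). The values of Cxcr2 carry the choice of cells and are a description only. All control values rest on at most 20046 UMIs of 12 cells, and those with cells left out rest on fewer. In T cells, where free RNA is read, Il1b was found in 1.13% of control cells. For every 100 S100a9 UMIs, T cells held 298 of Il1b in the control library and 187 in the anti-CD9 library. S100a9 in these T cells was at 5.53 and 82.4 CPM. Il1b in T cells was thus also higher in the anti-CD9 library, and its part in the ratio of the gated cells was not tested.

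Within the anti-CD9 library the gated neutrophils were set beside the 723 interferon-high cells. Of 4195 genes with at least 50 UMIs, 140 (3.34%) were at least 2-fold higher in the gated cells and 473 (11.3%) at least 2-fold lower, relative to the median gene, whose log2 ratio was 0.38. Ratios below are log2 ratios of pooled CPM after subtraction of that shift. Since the marker minimum was asked of the gated cells only, a further ratio is given for some genes against the 411 interferon-high cells that also met it. Both groups were cut by interferon UMIs, so the 19 of 21 tested interferon-stimulated genes that lay 2-fold lower in the gated cells, with a median of −2.55, carry the choice of cells and are no finding. Cxcl10, a CXCR3 ligand, was at 487 and 10008 CPM, and Isg15 at 480 and 3225.

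Cytokine and chemokine genes were lower in the gated neutrophils as well. Of 13 tested, 9 lay at least 2-fold lower and 0 higher, with a median of −1.68, beside the 11.3% of all genes. The CC chemokine genes Ccl4 and Ccl3 were at 1952 and 1007 CPM in the gated cells and 14796 and 5864 CPM in the interferon-high cells (−3.30 and −2.92). Il1a, the interleukin 1 form that is held in the cell, was at 122 and 1400 CPM (−3.90) and Il1rn, the antagonist of the interleukin 1 receptor, at 541 and 2557 CPM (−2.62). Cxcl2 was at 5180 and 19441 CPM (−2.29). Il1b moved less, at 8291 and 10195 CPM (−0.68), and Ccl6, a CC chemokine of myeloid cells, was the highest of the list, at 803 and 481 CPM (0.36). Interleukin 1β transcripts were thus abundant in both groups, whereas Ccl3, Ccl4 and Cxcl2 stood apart. Against the 411 cells with the marker minimum these 3 lay at −2.18, −2.78 and −2.02, and Il1b at −0.81. The interferon limit used these same cells, so these differences are described without a test.

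Receptors showed a mixed picture. Csf3r was at 1684 CPM in the gated and 809 CPM in the interferon-high cells (0.68, 0.56 to 0.80), and Il6ra, the interleukin 6 receptor, at 156 and 58.8 CPM (1.03). With the marker minimum in both groups these ratios were 0.28 (0.14 to 0.41) and 0.74. Both genes belong to the growth factor receptor list, of which 11 were tested. Its median was −0.19, with 1 higher and 1 lower, beside 3.34% and 11.3% of all genes. Cxcr2 and Mmp9 are genes of that minimum, so their values, 1055 and 457 CPM and 615 and 205 CPM, carry the choice of cells. Chemoattractant receptors had a median of −0.43 over 8 tested, with 2 at least 2-fold lower and 0 higher, beside 11.3% and 3.34% of all genes. The 2 were Ccrl2, a chemerin-binding receptor without signalling, at 424 and 2080 CPM (−2.67), and Ptafr, the platelet-activating factor receptor, at 433 and 906 CPM (−1.44). Ccr1 and the C5a receptor gene C5ar1 lay at −0.20 and −0.49, and Cxcr4 at 0.28. Of 12 innate receptors 4 were lower (median −0.67), among them Cd14, at 2011 and 3648 CPM (−1.24), Clec4e, which senses mycobacterial glycolipid, at 1066 and 2010 CPM (−1.29), and the inflammasome sensor Nlrp3, at 431 and 1244 CPM (−1.91). Cd274, which encodes PD-L1, was at 411 and 1862 CPM (−2.56), the lowest of 14 Fc and paired receptors, of which 2 were lower, near the share of all genes, and the median was −0.04.

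Lists of the neutrophil machinery had medians from −1.36 to 0.21, and their counts stand beside 11.3% of all genes lower and 3.34% higher. Those of late maturation, glycolysis and transcription factor genes were near these shares. Of 12 late maturation genes 1 was 2-fold lower and 0 higher (median −0.28), the 1 being Fth1, at 29171 and 49201 CPM (−1.13, and −0.78 with the marker minimum in both groups). Adhesion genes had a median of 0.21 over 9 tested, with 2 at least 2-fold lower and 0 higher. Selplg, the P-selectin ligand, was at 545 and 268 CPM (0.65, and 0.25 with the marker minimum in both groups). The integrin gene Itgam was at 567 and 318 CPM (0.46), and Icam1, among the lower genes, at 240 and 593 CPM (−1.68). Of 6 NADPH oxidase genes only Cybb, the catalytic subunit, passed 2-fold, at 219 and 578 CPM (−1.78). Of the extracellular trap and pyroptosis genes 3 of 5 tested were lower and 0 higher (median −1.36): Nlrp3, the inflammatory caspase gene Casp4, at 306 and 677 CPM (−1.52), and Casp1, which cleaves interleukin 1β precursor, at 70.2 and 138 CPM (−1.36). Survival and apoptosis genes had 5 of 13 lower (median −0.79), with Casp8 (−2.27) and Cflar (−1.76) the lowest, whereas Mcl1, which neutrophils depend on to survive, was at 2154 and 2081 CPM (−0.33). Bcl2a1b and Bcl2a1d, also among the 5, are near-identical copies whose counts are uncertain. Lipid mediator genes had a median of −0.09 over 4 tested, and Alox5, 5-lipoxygenase, was at 104 and 37.2 CPM (1.11, and 0.68 with the marker minimum in both groups). Glycolysis genes had a median of −0.40, with 2 of 16 lower. Of 10 transcription factors 1 was lower, Irf8, and Cebpd was highest, at 428 and 192 CPM (0.78).

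**Figure D3:**
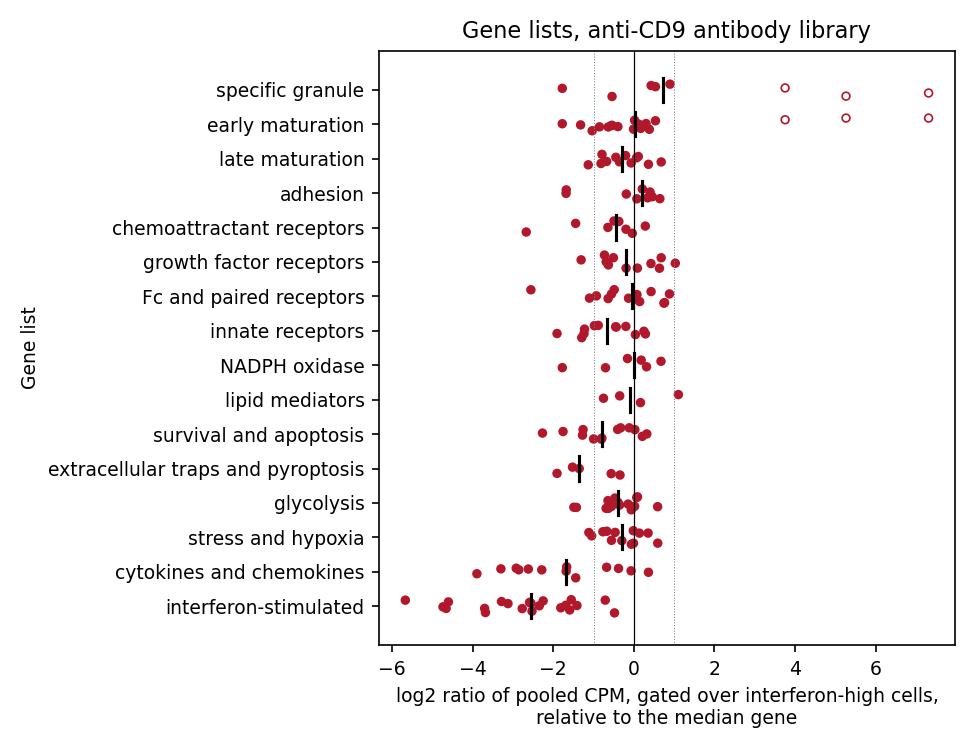
Log2 ratio of pooled CPM, gated over interferon-high cells of the anti-CD9 library, relative to the median gene, with 1 point per tested gene of each list and a bar at the list median; dotted lines mark 2-fold and open points are Camp, Ngp and Ltf, whose UMIs came mostly from 1 gated cell. The interferon-stimulated list (median −2.55) and the cytokine and chemokine list (median −1.68) lie farthest to the left.

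Specific granule genes need the same care as the control cells. Of 8 tested, 3 were at least 2-fold higher than in interferon-high cells and 1, Cybb, lower, beside 3.34% and 11.3% of all genes. The 3 were Camp, Ngp and Ltf, of which 1 gated cell gave 96.1%, 92.2% and 92.6% of the UMIs. Without the cells of 100 or more UMIs of these genes or of immunoglobulin genes, 0 of 5 tested were higher and 1 was lower. The median then went from 0.72 to 0.12. Other granule genes were found in more cells: Lcn2, the siderophore-binding lipocalin, was found in 371 cells at 3877 and 4343 CPM (−0.54), Hp, haptoglobin, in 325 cells at 1129 and 467 CPM (0.90) and Pglyrp1, a peptidoglycan-binding protein, in 232 cells at 621 and 329 CPM (0.54). At an equal depth of 1000 UMIs Lcn2 was found in 68.5% of gated cells and 5.45% of T cells, Hp in 55.7% and 2.48%, and Pglyrp1 in 37.6% and 4.42%, the T cells being read as background. Among the 345 interferon-high cells of that depth with the marker minimum, Lcn2 was found in 69.9% and Hp in 33.3%. Pglyrp1 was found in 33.0% of them (28.1 to 38.3%), an interval that holds the share of the gated cells. Outside the lists, the genes of at least 200 UMIs that stood highest in the gated cells, after Camp and immunoglobulin genes, were Nlrp12, an inhibitory NOD-like receptor, at 242 and 53.6 CPM (1.79), the immediate early gene Fos at 864 and 221 CPM (1.59), Hipk1 (1.49), Rgs2, a regulator of G protein signalling (1.44), and Fry (1.37). With the marker minimum in both groups Nlrp12 lay at 1.15 and Fos at 1.12. The lowest was Cxcl11, an interferon-induced chemokine (−6.91).

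To compare shares of cells at equal depth, each cell was thinned to 1000 UMIs, which left 327 gated, 590 interferon-high and 82 stress-high cells and set aside 210, 133 and 19 shallower ones. Csf3r was then found in 73.4% of gated cells (68.3 to 78.1%; 78.0% before thinning), 44.7% of interferon-high cells (40.7 to 48.9%) and 29.3% of stress-high cells (19.7 to 40.4%), against 2.10% of T cells, whose median depth was 2349 UMIs. Hp was found in 55.7%, 27.5% and 18.3%, and Il1r2 in 60.6%, 48.3% and 18.3%. Cxcl2 ran the other way, at 62.4%, 90.7% and 93.9%, with 7.59% in T cells. Il1b was found in 86.5%, 92.4% and 68.3%, with 6.66% in T cells. Among the 345 interferon-high cells with 1000 UMIs that also met the marker minimum, an alternative chosen after seeing the data, Csf3r was found in 55.7% (50.2 to 61.0%), Hp in 33.3%, Il1r2 in 59.7% and Cxcl2 in 89.9%. The share of cells with Il1r2 then lay within the interval of the gated cells, whereas those of Csf3r, Hp and Cxcl2 did not. Of the 36 stress-high cells that met both minima, 38.9% (23.1 to 56.5%) held Csf3r. Intervals of Cxcr4 (24.2% and 18.8%) overlapped between the gated and interferon-high cells, and T cells had Cxcr4 in 4.66%. That share of T cells also counts any Cxcr4 that they make themselves. Cd9 was found in 64.5% of gated cells (59.1 to 69.7%), 73.4% of interferon-high cells (69.6 to 76.9%), 78.0% of stress-high cells and 8.59% of T cells. Among the 345 interferon-high cells that also met the marker minimum it was found in 68.4% (63.2 to 73.3%), within the interval of the gated cells. Among the 36 such stress-high cells it was found in 86.1% (70.5 to 95.3%).

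**Figure D4:**
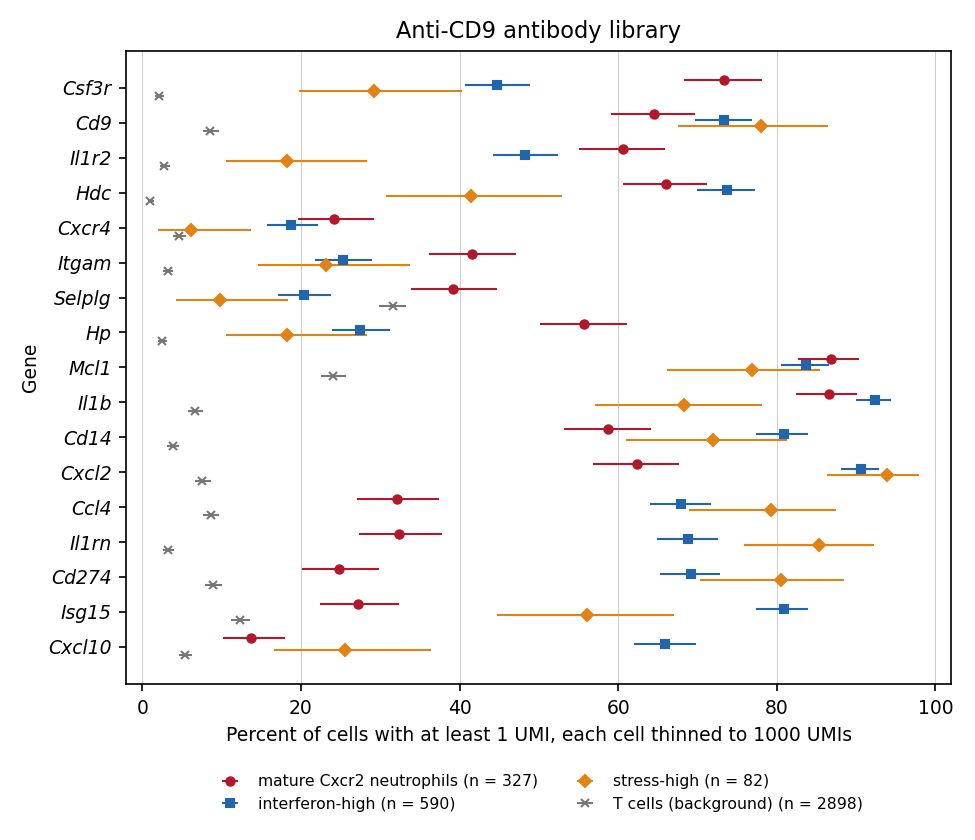
Percent of cells of the anti-CD9 library with at least 1 UMI of each gene after thinning each cell to 1000 UMIs, with exact 95% intervals, for mature Cxcr2 neutrophils (327 cells), interferon-high (590), stress-high (82) and T cells (2898, as background). The T cell shares also count any of these transcripts that T cells make themselves. The marker minimum was asked of the gated cells only. Csf3r, Il1r2 and Hp lie highest in them, though Il1r2 does not lie apart when interferon-high cells also meet it (59.7%). Cxcl2, Ccl4, Il1rn, Cd274 and Isg15 lie lowest in them of the 3 classes of S100a8/S100a9 cells.

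Against the 101 stress-high cells the contrast was broader. Of 2888 genes 458 (15.9%) were at least 2-fold higher in the gated neutrophils and 415 (14.4%) lower, relative to the median gene at a log2 ratio of 0.31. Only 42 of the stress-high cells met the marker minimum of the gate. Glycolysis genes were lower in 9 of 16 (median −1.13) and stress and hypoxia genes in 9 of 12 (median −1.59), with 0 higher in either list. The glycolytic enzyme gene Tpi1 was at 177 CPM in the gated and 705 CPM in the stress-high cells, and Hmox1, heme oxygenase, at 152 and 541 CPM. Cytokine and chemokine genes were lower in 8 of 12 and higher in 1 (median −2.21), with Ccl3 at 1007 and 9805 CPM. Against the 42 cells with the marker minimum, likewise set after seeing the data, Tpi1 lay at −1.40, Hmox1 at −1.97 and Ccl3 at −2.95 on the log2 scale. Adhesion genes were higher in 4 of 8 and lower in 1 (median 0.85), led by Selplg at 545 and 128 CPM. The stress limit of the gate used this contrast, so these counts describe the cut. Among the genes not in the gate with the highest ratios were Fos, at 864 and 66.4 CPM (3.39), Gm5150 (2.69), Gm26740 (2.44) and Klhl2 (2.30). Survival genes were lower in 5 of 12 (median −0.97), and Mcl1 was at 2154 and 2073 CPM. The plasma cell gene Igha was at 1903 CPM in the gated and 4468 CPM in the stress-high cells, and 1 cell of each group gave 89.4% and 98.9% of these UMIs.

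CD9 is a tetraspanin, a membrane protein with 4 passes that organises other proteins at the cell surface, and it is the antigen of the injected antibody. Cd9 was at 1413 CPM (1327 to 1503) in the gated neutrophils of the anti-CD9 library, 1910 CPM in interferon-high and 2206 CPM in stress-high cells and 623 CPM in the kept cells under the calprotectin minimum. Relative to the median gene the gated cells lay 0.81 below the interferon-high cells on the log2 scale, and 0.51 below those with the marker minimum. Since Cd9 was higher in cells with fewer marker UMIs, the first of these values is a description of the chosen cells only. Against the 42 stress-high cells with the marker minimum the log2 ratio was −1.12. Cd53, another tetraspanin of leukocytes, lay 0.94 below the interferon-high cells, at 831 and 1229 CPM. Against the same interferon-high cells Cd63 and Cd37 lay at 0.16 and 0.17. Of 6 tested tetraspanins 0 passed 2-fold against interferon-high cells, where 3.34% of genes were higher and 11.3% lower, and 1 was higher and 1 lower against stress-high cells. Transcript counts do not measure CD9 protein, which was not analysed here.

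The gated neutrophils of the anti-CD9 library also differed among themselves. They were ordered by the share of UMIs from Camp, Ngp, Ltf, Lcn2 and Chil3, which was mostly Lcn2, and split into 3 sets of 179 cells. From the lowest to the highest set Lcn2, which made the order, went from 190 to 1806 to 10448 CPM. Fth1 was at 17364, 22430 and 50318 CPM, Ccl3 at 307, 640 and 2228 CPM, and Fpr1, the formyl peptide receptor, at 165, 240 and 789 CPM. Wfdc21, a gene of the early maturation list, was at 242, 479 and 1308 CPM. Intervals of these genes did not overlap between the lowest and the highest set. Csf3r did not follow this order, at 1672, 1778 and 1605 CPM, and neither did Cxcr2, at 1010, 1189 and 978 CPM. Ribosomal protein UMIs were 6.27%, 4.68% and 3.33% of the total, and all 5 T cell markers were highest in the lowest set, with Cd3g at 428, 87.5 and 63.1 CPM and Trbc2 at 242, 46.1 and 13.5 CPM. Their part in these differences was not tested. Ordered instead by total UMIs, the 3 sets had Fth1 at 30188, 35012 and 25745 CPM and Fpr1 at 280, 402 and 409 CPM.

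**Figure D5:**
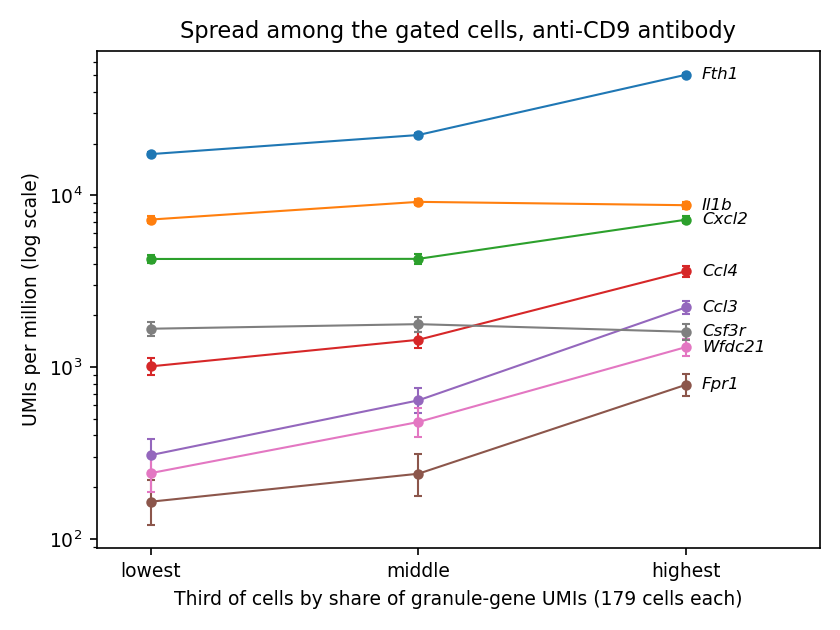
CPM (log scale) of 8 genes in the lowest, middle and highest of 3 equal sets of the 537 gated anti-CD9 cells, ordered by their share of granule-gene UMIs, with exact 95% intervals of counting error. Fth1, Ccl3, Ccl4, Fpr1 and Wfdc21 lie highest in the highest set, whereas Csf3r does not.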

How the data were processed

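The authors sorted live CD45+ cells, made libraries with the 10x Genomics 3′ kit (version 3.1) and deposited raw UMI counts per gene and barcode, made with Cell Ranger 8.0.0 on GRCm39 per the submitters' processing notes. From these counts the gate was applied to 33696 genes, with the first of 26 duplicated symbols used. UMIs were summed over the cells of a class and scaled to CPM. A gene was compared when 50 or more UMIs fell in both classes together, and called at 2-fold from the median gene; a 0 was set to 3 counts. Named genes were those of the gate, of the lists (300 of 302 listed genes found), the 10 highest and lowest ratios with at least 200 UMIs, and the 20 most abundant. Genes named beyond these, such as Ptprc, were chosen after their values were seen. Members and lists were chosen with earlier results of these data known. No doublet caller was run; 54 barcodes occurred in both libraries, 1 of them in the gate. T cells were kept cells with under 10 calprotectin UMIs and 2 or more UMIs of Cd3d, Cd3e and Cd3g together. Python 3.11.15, NumPy 2.4.6, SciPy 1.17.1, pandas 2.3.3 and Matplotlib 3.10.9 were used, and the comparison was tested on simulated data. Some listed genes are not reported here. Alternatives varied the mitochondrial limit, the gate minima, the scaling and the cells left out.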

Additional observations from a re-analysis of the deposited data

How the results depend on the processing

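The share of gated cells in the anti-CD9 library, 3.715%, depended on the bounds of the gate. It was 5.654% with at most 2% mitochondrial UMIs, 4.165% and 3.085% with a calprotectin minimum of 5 and 20, 4.649% and 3.002% with a marker minimum of 1 and 3, 6.849% with no interferon and stress limits and 3.024% among cells of at least 1000 UMIs. The control share ranged from 0.0596 to 0.161% over the same alternatives, always below the anti-CD9 share. Leaving out cells with markers of other types gave 3.452%, and leaving out cells with 100 or more UMIs of immunoglobulin or of Camp, Ngp and Ltf, chosen after seeing the data, gave 3.632%. With a minimum of 200 UMIs per gene, 50 genes were higher and 233 lower than in interferon-high cells, in place of 140 and 473, since fewer genes were compared. List medians that took the other sign in at least 1 of 7 alternatives were those of early maturation, Fc and paired receptors, growth factor receptors, and stress and hypoxia. No paired analysis was possible because each antibody had 1 library, and leaving out a replicate was not possible for the same reason. At a median of 1097 UMIs per gated cell, a gene without a UMI in a cell may be undetected at this depth.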

Other observations

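Cells with 3 or more UMIs of Camp, Ngp and Ltf also occurred outside the gate. Under the marker minimum they numbered 2 of 7 control cells and 9 of 335 anti-CD9 cells (2.69%, exact 95% interval 1.24 to 5.04%), and among interferon-high cells of the anti-CD9 library 1 of 723. The 2 control cells held 329 and 5 Camp UMIs. The 9 anti-CD9 cells held from 2 to 23 Camp UMIs, and all 9 had 0 Cxcr2 and 0 Ly6g UMIs. In both libraries such cells were thus found on each side of the marker minimum. Among the kept cells with under 10 calprotectin UMIs, 10 of 12208 anti-CD9 cells and 0 of 11612 control cells reached this level.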
